A study of Mus musculus with 4 samples.

Results

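In a ChIP-seq map of CTCF in mouse heart (chromatin immunoprecipitation followed by sequencing), 9606 records of the pooled peak list, 15.4% of it, shared no base with any record of the stricter, conservative list. These pooled-only records are described here against the other 52739 records (84.6%), which share at least 1 base with a conservative record and are called overlapping. A record is a called peak with its interval and summit. Both lists keep candidates by the irreproducible discovery rate (IDR), which asks whether a pair of calls of the same peak ranks alike in 2 sets of reads, and both stop at an IDR of 0.05. The conservative list, with 54309 records, compares the 2 pools of hearts with each other. The pooled list is ranked on both pools merged.

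The hearts came from adult female B6CASTF1/J mice aged 2 months, which are F1 offspring of the strains C57BL/6J and CAST/EiJ, so every nucleus carried a genome of each parent. Pool G (biological replicate 2) and pool H (biological replicate 1) each joined 2 heart biosamples and were sequenced as 2 technical libraries, 4 libraries in all. No treatment or other genotype was compared, all libraries share these features, and no control library was analysed here. The tissue holds several cell types, so a site bound in few cells and a site bound weakly in many cannot be told apart, and CTCF peaks gave no expression value against which the tissue label could be checked.

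CTCF is a zinc-finger protein that reads a long motif with a GC-rich core, and it halts the ring-shaped cohesin complex at the base of chromatin loops when the motif faces into the loop. Its sites are shared by many tissues, and rodent genomes have gained further copies of the motif through B2 short interspersed elements. CTCF is also found at many promoters, CpG islands included.

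The records were chosen on their IDR, which follows from signal, so signal, width, IDR and presence in the pools' own lists describe them and were not tested. The sequence and the gene location of the summits were not used by the choice.

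The sequences below show the 12-base CTCF core as it occurs in 4 kinds of record, with the core in capitals and 44 bases on either side, on the strand of the core (mm10). The 3 strongest pooled-only records with an exact core outside soft-masked sequence lay at chr8:34101106-34101205 in an intron of Dctn6, at chr16:27457436-27457535 in intergenic sequence 67.5 kb from the nearest protein-coding transcription start site (TSS), that of Ccdc50, and at chr2:135957903-135958002 in an intron of Plcb4, all on the minus strand. Their signals were 851, 850.0 and 849.6.
Dctn6: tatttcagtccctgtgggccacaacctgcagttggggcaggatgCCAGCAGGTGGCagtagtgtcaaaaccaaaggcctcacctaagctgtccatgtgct
Ccdc50: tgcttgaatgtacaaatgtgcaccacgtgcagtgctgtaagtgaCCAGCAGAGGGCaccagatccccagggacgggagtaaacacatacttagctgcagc
Plcb4: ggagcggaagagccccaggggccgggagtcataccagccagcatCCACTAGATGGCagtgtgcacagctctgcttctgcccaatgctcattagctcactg

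The 3 strongest pooled-only records whose core is the word with most copies in the genome, CCAGAAGAGGGC, are shown next because that word is carried by more of the pooled-only records than any other. They lay at chr10:61417547-61417646 (minus strand) in a promoter 321 bp upstream of a TSS of Nodal, at chr14:46505429-46505528 (minus strand) in an intron of a transcript 115 kb from the nearest protein-coding TSS, that of Bmp4, and at chr2:121137299-121137398 (plus strand) in an intron of Lcmt2. Signals were 124.8, 119 and 112. Compared position by position without gaps, core included, the windows near Nodal and in Lcmt2 were identical at 98 of 100 bases. The Bmp4 window matched them at 41 and 42 bases. Such a count misses stretches out of register: all 3 windows hold gttgtgagcca after the core, at another position in that of Bmp4. How alike the Bmp4 flanks are when aligned was not tested.
Nodal: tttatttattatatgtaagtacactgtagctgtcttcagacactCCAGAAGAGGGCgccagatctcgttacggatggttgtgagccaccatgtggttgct
Bmp4: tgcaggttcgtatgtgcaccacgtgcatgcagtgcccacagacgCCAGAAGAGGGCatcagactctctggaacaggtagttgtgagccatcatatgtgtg
Lcmt2: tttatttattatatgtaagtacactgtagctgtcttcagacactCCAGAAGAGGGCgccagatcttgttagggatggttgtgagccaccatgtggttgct

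Weak records with an exact core outside soft-masked sequence are shown for contrast with the strong ones; they were picked after the signals had been seen. They lay at chr2:104096795-104096894 (plus strand) in an intron of Cd59a, at chr4:150964699-150964798 (plus strand) in a promoter inside Camta1, and at chr1:188018518-188018617 (minus strand) in an intron of Esrrg, with signals of 145, 127 and 125.02.
Cd59a: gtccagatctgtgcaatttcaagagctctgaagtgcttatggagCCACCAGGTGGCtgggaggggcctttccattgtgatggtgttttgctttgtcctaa
Camta1: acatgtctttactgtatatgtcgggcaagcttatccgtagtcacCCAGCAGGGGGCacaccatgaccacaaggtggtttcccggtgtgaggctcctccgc
Esrrg: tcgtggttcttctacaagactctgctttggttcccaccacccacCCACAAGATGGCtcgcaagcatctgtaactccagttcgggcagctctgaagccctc

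Strong overlapping records with an exact core outside soft-masked sequence lay at chr4:134478138-134478237, 8.47 kb from a TSS of Stmn1, and at chr15:75748492-75748591 in a promoter 321 bp upstream of a TSS of Mafa, both on the minus strand. Their signals were 869 and 843. Both carried the same word, CCACCAGGGGGC, which none of the 9 pooled-only sequences above carries.
Stmn1: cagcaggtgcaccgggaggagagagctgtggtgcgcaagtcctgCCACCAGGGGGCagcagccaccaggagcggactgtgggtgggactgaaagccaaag
Mafa: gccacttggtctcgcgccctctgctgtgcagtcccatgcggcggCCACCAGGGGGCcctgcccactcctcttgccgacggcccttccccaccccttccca

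The pooled-only records were weak, apart from a small group among the strongest records of the experiment. Their median signal was 68.9 (quartiles 59.3 and 79.0, range 10.3 to 876), against 280.0 in overlapping records (quartiles 135 and 564, range 10.3 to 869). The signal is the peak caller's score, deposited without a unit. It fell into groups that did not touch: 114 records had a signal of at least 759, the next had 208, and the following had 173 and 145. Between 173 and 759 lay 32563 overlapping records but only 1 pooled-only record. The 114 are called strong (median 821, quartiles 803 and 839) and the other 9492 weak (median 68.7) from here on, a division made after the signals had been seen.

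**Figure D1:**
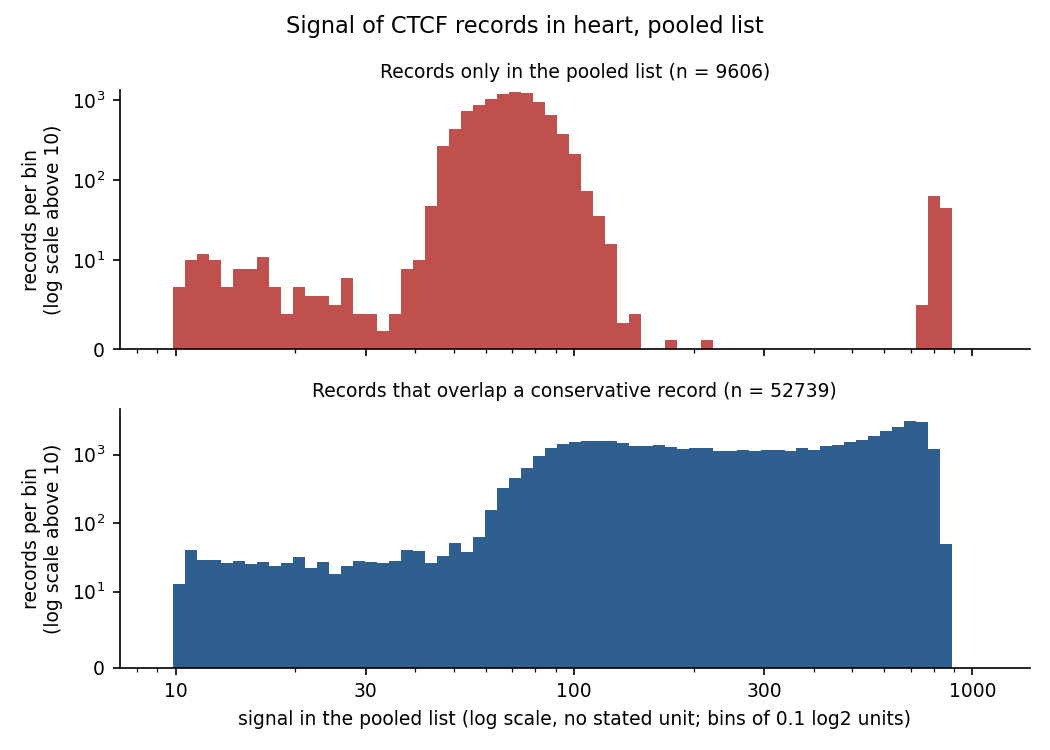
Signal of each record in the pooled list (x axis, log scale, no stated unit) against the number of records per bin (y axis, linear below 10 and log above) for the 9606 pooled-only records (top) and the 52739 overlapping records (bottom). The pooled-only records form a broad group around 68.9 and a narrow group at 759 to 876, with almost none between, while overlapping records fill the whole range.

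In the pooled list's own ranking most of them passed with room to spare. The best possible scaled IDR of 1000 was reached by 62.2% of pooled-only records and by 96.7% of overlapping records, and 75.2% against 98.2% passed an IDR of 0.01. The 3 pooled-only records just inside the threshold had an IDR of 0.0499 and signals of 44.2, 42.4 and 47.0. The 3 candidates just outside it that overlap no conservative record had an IDR of 0.0501 and signals of 58.6, 70.5 and 63.3, so signal alone did not order the candidates there. An interval of exactly 420 bp, the most frequent width, was found in 90.7% of pooled-only records and in 11.997% of overlapping records, and 0.167% against 3.99% shared their interval with a further summit.

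In the ranking between the pools, 9601 of the 9606 had a matched candidate and 5 had none. Of the matched ones, 4690 (48.8%) stood at the poorest IDR of that list, 0.689. A further 18.1% lay between about 0.05 and 0.1 and 23.3% between 0.1 and 0.2, and the 3 nearest to the conservative threshold had IDRs of 0.05001, 0.05002 and 0.05004 (signals 76.3, 77.1 and 87.9).

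Pool G and pool H signals of the same record differed more in weak pooled-only records than in overlapping records with signals between 48.7 and 96.4. The values of both pools added up to the pooled signal within 0.8 to 1.25 times in 98.6% of the matched pooled-only records. They can thus be read as parts of the pooled signal. Read depth is unknown and the pools were not rescaled to each other, so a higher value in a pool is a description. The G signal was the higher one in 81.0% of pooled-only records and 96.0% of overlapping records. The log2 ratio of G over H had a median of 0.64 (quartiles 0.09 and 0.95) in weak pooled-only records, against 0.45 (0.31 and 0.57) in the 5158 overlapping records with signals between 48.7 and 96.4, the 5th and 95th percentile of the pooled-only records. Ratios between 0.25 and 0.5, where 44.9% of those overlapping records lay, held 8.21% of weak pooled-only records. The signal was higher in pool H in 19.1% of weak pooled-only records, and in 41.4% the log2 ratio was above 0.75. The choice by IDR between the pools fixes this spread, so it is a description and not a separate result.

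**Figure D2:**
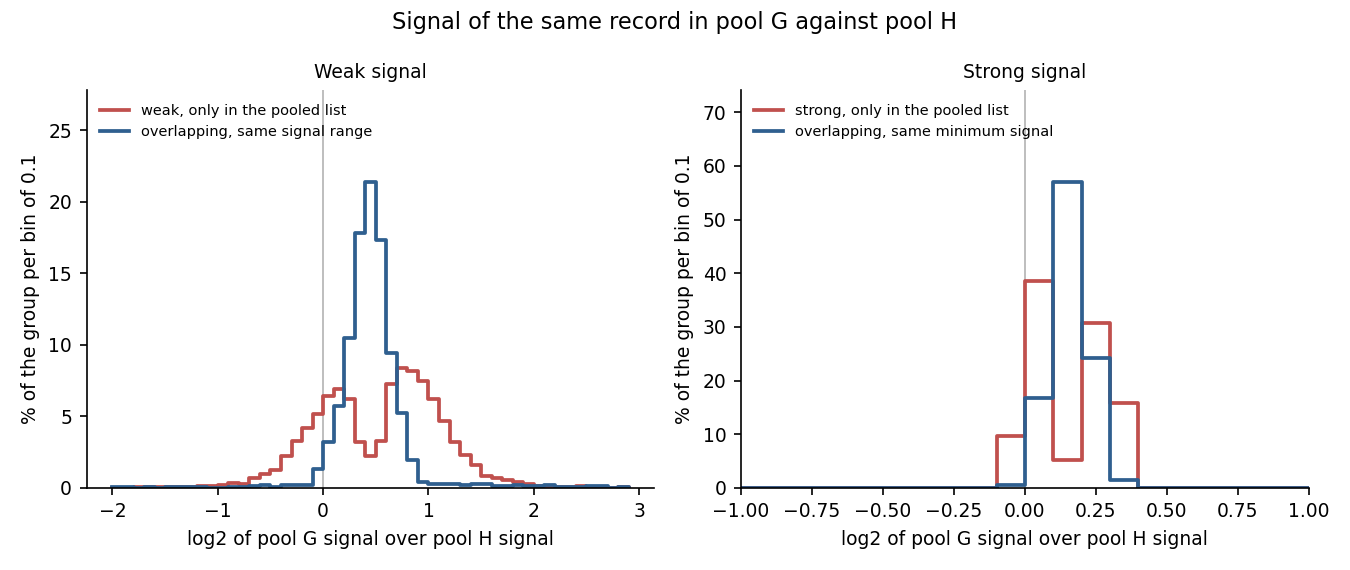
Share of records (y axis, %) by the log2 ratio of the pool G signal over the pool H signal (x axis, bins of 0.1) for pooled-only records (red) and overlapping records (blue) of weak signal (left, overlapping records between 48.7 and 96.4; x axis cut at -2 and 3) and of strong signal (right, at least 759). Weak pooled-only records lie on both sides of the single blue peak near 0.45, and few of them (8.21%) lie between 0.25 and 0.5.

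Presence in the pools' own thresholded lists was less frequent for pooled-only than for overlapping records. A pool G record was overlapped by 30.1% of the pooled-only records (83.5% of all records in the pooled list) and a pool H record by 19.2% (80.1% of all records). Both pools' lists held 4.57% and neither held 55.2%, against 87.7% and 3.25% of overlapping records. The 2457 found in the pool G list alone had median signals of 51.1 in G and 26.5 in H, and the 1408 found in the pool H list alone had 37.1 in G and 38.8 in H. A core was present in 51.3% of those in the G list alone, in 51.3% of those in the H list alone and in 52.8% of those in neither.

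The 114 strong records were candidates near the very top of the ranking. By signal they ranked between 55 and 3476 of 168128 candidates (median 692.5, where a lower rank is a stronger candidate), on 20 chromosomes. Candidates of this strength often failed the IDR: between the pools 32.7% of the first 300 passed and 68.3% of ranks 301 to 600, against 99.97% of ranks 3001 to 10000. In the merged ranking the shares were 15.3%, 30.3% and 97.5%. In the 114, the log2 ratio of G over H signals had a median of 0.15 (quartiles 0.04 and 0.26). In the 2075 overlapping records of at least the same signal it was 0.16, with a narrower span (0.12 and 0.20). The near-equal medians hide a different shape. Ratios from 0.1 to 0.2 held 5.26% of the 114 and 56.96% of these overlapping records. Ratios from 0 to 0.1 held 38.6% and 16.8%, and those from 0.2 to 0.3 held 30.7% and 24.3%. The choice by IDR between the pools fixes this shape too, so it is a description. The pool lists overlapped 63 (G) and 74 (H) of the 114, with 42 in both and 19 in neither.

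**Figure D3:**
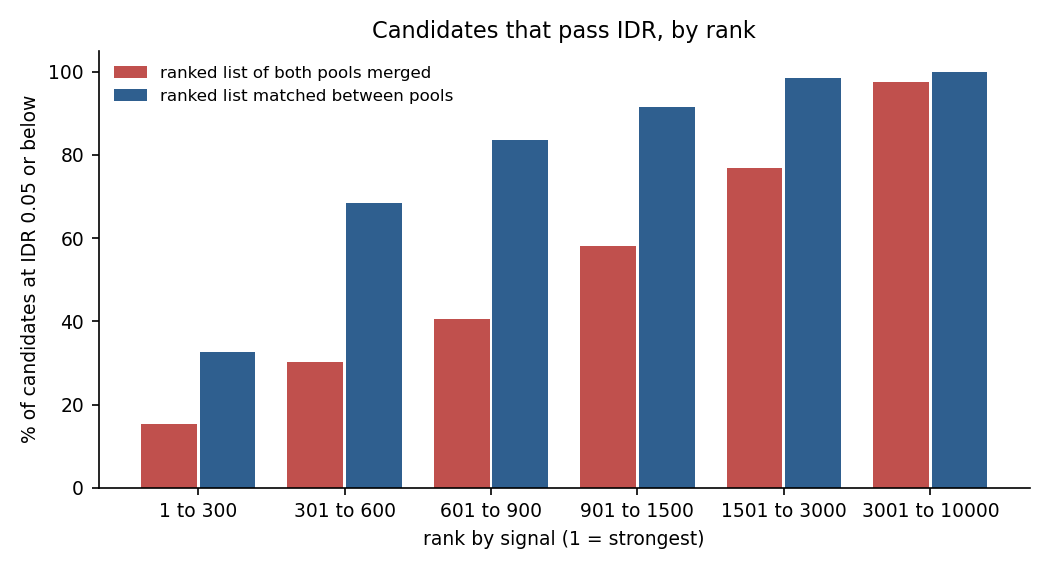
Share of candidates with an IDR of 0.05 or below (y axis, %) by rank of signal (x axis, rank 1 is the strongest), in the ranked list of both pools merged (red) and in the list matched between the pools (blue). In the first 300 candidates 15.3% and 32.7% passed, and in ranks 3001 to 10000 nearly all did.

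The strongest pooled-only record had a signal of 876 (469 in pool G and 408 in pool H) at chr8:22807690-22808243, a CpG-rich promoter summit 2.33 kb from the nearest protein-coding TSS, that of Ap3m2, which encodes a subunit of the AP-3 adaptor. It had no core. The second, at chr6:91741106-91741696 in an intron of Slc6a6, the taurine transporter, had 870.5 (449 and 421) and a core with 1 mismatch. The third, at chr8:27023352-27023902 in the promoter of Erlin2, a protein of endoplasmic reticulum lipid rafts, had 869 (448 and 421), and the fourth, at chr19:10304776-10305325 in the promoter of Dagla, a diacylglycerol lipase, had 865 (450.3 and 421). Both promoters were CpG-rich and had no core. The log2 ratio of G over H was 0.20, 0.09, 0.09 and 0.10 in these 4, and their IDR between the pools was 0.689, 0.240, 0.689 and 0.208.

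The other 6 of the 10 strongest lay away from promoters, with signals of 851 to 864. The record nearest Ddr1, a collagen receptor, lay in intergenic sequence 21.2 kb from its TSS (864, with 460 in G and 408 in H). The record in an intron of Ctbp2, a transcriptional corepressor, had 863 (451 and 417) and no core. The intergenic records nearest Shc4 (857), Cpn2 (855) and Fscn1 (854), and the intron record in Dctn6, a dynactin subunit (851), each had a core. That of Dctn6 is the exact core printed above.

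Fewer of the pooled-only summits had a CTCF core than overlapping summits, more lay in soft-masked sequence and slightly more at promoters. The core, with at most 1 mismatch on either strand and wholly within 100 bp of the summit, was present in 52.1% (95% exact binomial interval 51.1 to 53.1) of pooled-only records and 65.8% (65.4 to 66.2) of overlapping records, against 63.7% of all records. Windows 1 kb away held a core in 5.18% and 5.55%. The odds ratio was 0.567 (95% interval 0.544 to 0.591), and the share was lower on 20 of 20 chromosomes. All odds ratios here come from logistic fits across all records of the pooled list with errors clustered by chromosome (statsmodels), and the p-values were adjusted by Benjamini-Hochberg over 7 features. Each of the 7 differences between pooled-only and overlapping records passed the threshold of 0.05, with the highest adjusted p at 7.77e-09 for promoters. Records are not replicates, so these tests weigh the difference against its spread between chromosomes and not between hearts.

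These differences went with signal. With both kinds of record limited to signals of 48.7 to 96.4, 53.04% of pooled-only and 52.97% of overlapping records had a core. Signals were not alike inside that range. Across the kinds of summit counted below, median signals lay between 81.9 and 85.3 in these overlapping records. In all pooled-only records they lay between 66.1 and 71.4. With log2 signal as a term over all records the odds ratio of the core turned to 1.298 (1.24 to 1.36). Of the records with a signal under 50 (642 pooled-only and 661 overlapping), 0.623% of pooled-only and 69.7% of overlapping records share an interval with a further summit. Within the same signal range, with log2 signal as a term, the odds ratio of the core was 1.12 (1.04 to 1.20). Without records that share an interval, an alternative added after the data were seen, it was 0.979 (0.907 to 1.06) and did not pass the threshold. By signal, the core was present in 36.6% of pooled-only and 5.90% of overlapping records under 50, and in 53.1% and 12.8% from 50 to 60. From 60 to 70 the shares were 52.0% and 47.8%, and from 70 to 80 they were 53.5% and 52.4%. Above that the pooled-only share was the lower one, with 54.4% and 55.1% from 80 to 90, 53.8% and 57.03% from 90 to 100, and 44.1% and 56.8% from 100 to 150. These bins were not tested.

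**Figure D4:**
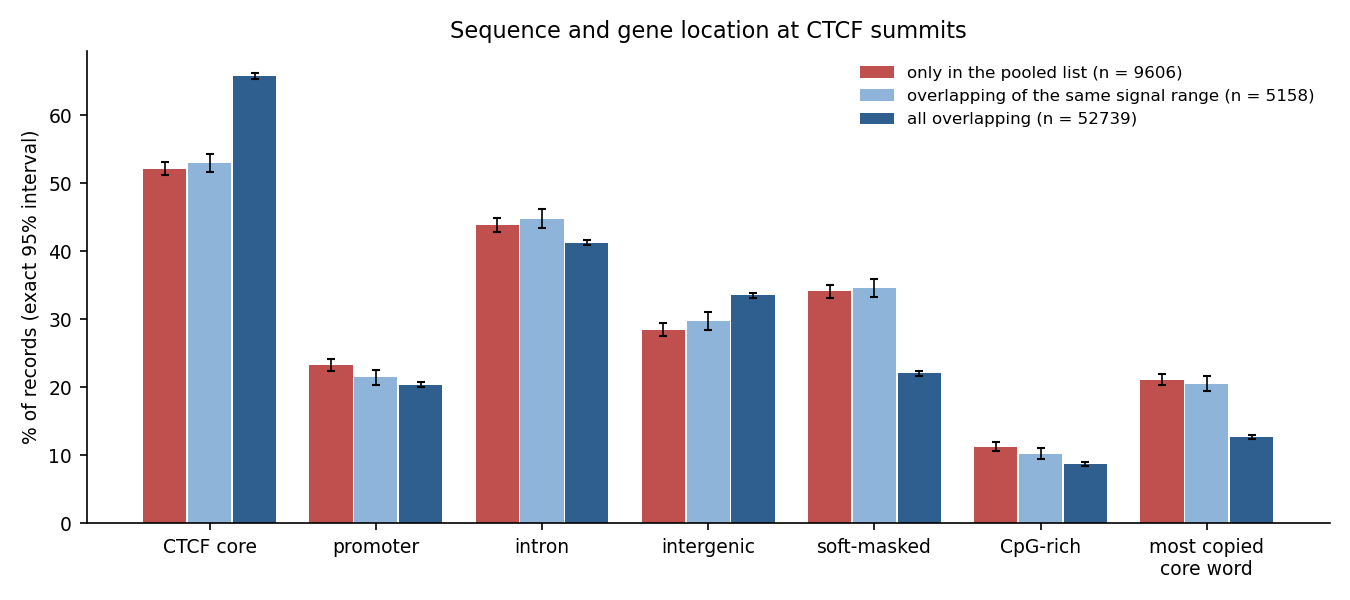
Share of records (y axis, %, with exact 95% binomial intervals) with each of 7 features for all pooled-only records (red), overlapping records with signals of 48.7 to 96.4 (light blue) and all overlapping records (dark blue). For the core, soft-masked sequence and the most copied word the red bar stands near the light blue one and apart from the dark blue one.

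Soft-masked sequence, the repeats and simple sequence written in lower case in the reference genome, held the summit of 34.1% (33.1 to 35.0) of pooled-only records and 22.0% (21.7 to 22.4) of overlapping records, against 23.9% of all records; 34.3% of the genome is soft-masked. The odds ratio was 1.83 (1.76 to 1.90), higher on 20 of 20 chromosomes. With log2 signal as a term it was 0.828 (0.791 to 0.866), and within the same signal range it was 1.04 (0.954 to 1.13) and did not pass the threshold. The masking names no repeat family, so none is given here.

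A core was nearly always present where the summit was soft-masked, in 88.8% (87.7 to 89.9) of 3274 pooled-only and 90.6% (90.1 to 91.1) of 11623 overlapping summits. Outside soft-masked sequence it was present in 33.2% (32.0 to 34.4) of 6332 pooled-only and 58.7% (58.3 to 59.2) of 41116 overlapping summits. The share with a core was lower in pooled-only records at both kinds of summit, by more outside soft-masked sequence, and the difference between them was not tested. A base-weight matrix was learned outside soft-masked sequence, on overlapping records of odd autosomes alone, and read on even autosomes and X. It found the motif in 25.01% of 4522 pooled-only and 49.6% of 24717 overlapping records, with 0.862% and 0.931% in windows 1 kb away. In the same signal range it found 25.3% and 27.2%. No pooled-only record entered the training. Of records with a core, the nearest one was wholly soft-masked in 60.2% of pooled-only and 30.9% of overlapping records. The matrix is thus fitted to the group set against the pooled-only records and is not an independent measure of the difference.

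A single word of the core made up most of the exact matches in pooled-only records. CCAGAAGAGGGC has 50358 copies in the genome, 99.6% of them soft-masked, and the next word has 1997. It lay within 100 bp of 21.1% (20.3 to 21.9) of pooled-only summits and 12.6% (12.3 to 12.9) of overlapping summits, against 13.9% of all records (odds ratio 1.85, 1.74 to 1.97, higher on 20 of 20 chromosomes). With log2 signal as a term the odds ratio was 0.878 (0.818 to 0.942), and within the same signal range 1.08 (0.983 to 1.20), which did not pass the threshold. It made up 2026 of the 2783 exact cores of pooled-only records (72.8%) and 38.4% of those of overlapping records. Other exact words alone were found in 7.88% of pooled-only and 20.3% of overlapping records.

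The words differed in which list held their copies. Records with CCAGAAGAGGGC were pooled-only in 23.3% of cases, above the 15.4% of the whole list, and 1 further word, CCAGAAGGGGGC, was above it (102 pooled-only and 509 overlapping records, 16.7%). Of the copies of CCAGAAGAGGGC in the genome, pooled-only records held 4.02% and overlapping records 13.2%. For CCACCAGGGGGC, the word of the strong overlapping sequences shown, these shares were 1.98% and 77.7% of 808 copies, and for CCACTAGGGGGC, of which 0.214% of copies are soft-masked, they were 1.71% and 79.7% of 467. The median signal of pooled-only records was 68.3 for CCAGAAGAGGGC (2026 records), 78.4 for CCACCAGGGGGC (16) and 83.9 for CCACTAGGGGGC (8), whereas in overlapping records it was 165, 647 and 615.

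The core also lay farther from the summit than in overlapping records, whose signals were higher. In records with a core the median distance from summit to core centre was 10.5 bp (quartiles 4.5 and 21.5) in pooled-only records and 7.5 bp (3.5 and 12.5) in overlapping records. In strong pooled-only records it was 6.5 bp, as in overlapping records of at least the same signal. These distances were not tested, and none was taken at like signal for the weak records.

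Summits within 1 kb of an annotated TSS were 23.3% (22.4 to 24.1) of pooled-only records and 20.4% (20.0 to 20.7) of overlapping records, against 20.8% of all records and 6.13% of the genome. The odds ratio was 1.19 (1.12 to 1.26), higher on 18 of 20 chromosomes. Introns held 43.8% and 41.3% (41.7% of all records, odds ratio 1.11, 1.08 to 1.14), and intergenic sequence held 28.5% and 33.5% (32.7% of all records, odds ratio 0.791, 0.753 to 0.831). Exons outside promoters were rare, with 1.18% and 1.32% in coding sequence and 1.55% and 1.93% in 3′ UTRs. With log2 signal as a term no gene location passed the test: the odds ratio was 0.979 (0.916 to 1.05) at promoters, 0.978 (0.938 to 1.02) in introns and 1.04 (0.964 to 1.12) in intergenic sequence. The intron result also depended on the list set against the conservative list, which uses both pools. In the pool H list, records outside the conservative list had 39.0% in introns and the others 41.0% (odds ratio 0.923, 0.872 to 0.978). In the pool G list the values were 41.6% and 40.8% (odds ratio 1.03, 0.968 to 1.10).

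CpG-rich windows, with a GC content of at least 55% and at least 0.65 of the CpG pairs their base content predicts within 100 bp of the summit, were found at 11.2% (10.6 to 11.9) of pooled-only and 8.70% (8.46 to 8.94) of overlapping summits, against 9.09% of all records (odds ratio 1.33, 1.26 to 1.40, higher on 19 of 20 chromosomes). In the pool H list, set against the same conservative list, the odds ratio was 2.12 (1.90 to 2.38). There 16.5% of records outside the conservative list and 8.53% of the others had such a window. In the pool G list the odds ratio was 1.82 (1.66 to 2.00). For the pooled list with log2 signal as a term, the odds ratio was 1.02 (0.939 to 1.10) and did not pass the threshold. Of the 2235 pooled-only promoter summits 995 were CpG-rich (44.5%), against 37.1% of overlapping promoter summits. In these CpG-rich promoters a core was present in 9.95% (8.16 to 11.98) of pooled-only and 22.2% (20.9 to 23.5) of overlapping records. In other promoters it was present in 40.4% (37.7 to 43.2) and 55.1% (53.9 to 56.3). The median signal was 69.3 in pooled-only and 205 in overlapping records at CpG-rich promoters, and 69.1 and 277 at other promoters. These core shares are thus not at like signal, and their differences were not tested.

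Counted as kinds that do not overlap, the pooled-only summits were 30.3% soft-masked with a core, 21.9% with a core outside soft-masked sequence, 9.33% CpG-rich promoters without a core, 3.65% soft-masked without a core and 34.9% none of these. In overlapping records with signals of 48.7 to 96.4, a range to which the pooled-only records are not limited here, these shares were 30.3%, 22.6%, 8.26%, 4.07% and 34.7%, and in all overlapping records 20.0%, 45.8%, 5.87%, 1.97% and 26.4%. The kinds had like signals among pooled-only records, with medians between 66.1 and 71.4, whereas among overlapping records the median was 472 with a core outside soft-masked sequence and 176 with a soft-masked core. The soft-masked summits with a core lay in introns in 56.2% and at promoters in 8.22% of cases.

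**Figure D5:**
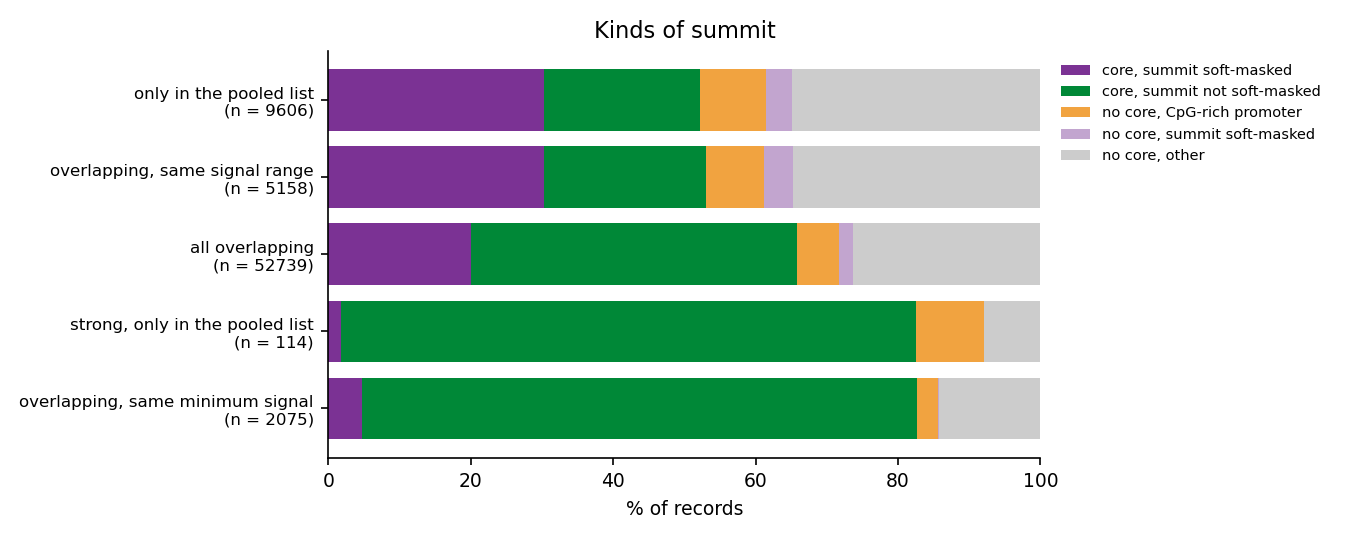
Share of records (x axis, %) in each of 5 kinds of summit that do not overlap, for pooled-only records, overlapping records with signals of 48.7 to 96.4, all overlapping records, strong pooled-only records (at least 759) and overlapping records of at least the same signal. The first and second bars are close, and the strong pooled-only records are mostly (80.7%) cores outside soft-masked sequence.

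The strong pooled-only records were of another make. A core was present in 82.5% of the 114 (74.2 to 88.9) and in 82.7% of the 2075 overlapping records of at least the same signal, and the matrix found 72.1% of 61 and 75.9% of the overlapping ones on even autosomes and X. Soft-masked summits made up 1.75% and 4.92%. None of the 114 held the most copied word, which allows a share of up to 3.18% (exact 95% interval), against 1.54% of the overlapping ones. Promoters held 27.2% (19.3 to 36.3) and 19.5%, and CpG-rich windows 28.1% (20.1 to 37.3) and 9.88% (8.63 to 11.2). The overlapping records share only the minimum signal with the 114. Their median signal was 781 (quartiles 770 and 797), against 821 (803 and 839) in the 114. These shares are thus not at like signal, and their differences were not tested. Leaving the 114 out moved the odds ratio of CpG-rich windows to 1.302 and that of the core to 0.559.

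The rule keeps pooled-only records clear of conservative records, so their spacing is a description, with no expected spacing set beside it. The median distance from summit to the nearest conservative summit was 8533 bp (quartiles 3167 and 20707); 45.6% lay more than 10 kb away and 6.06% less than 1 kb. They made up 13.9% to 17.9% of the records of each autosome (mean 15.6% ± 0.989, SD, n = 19 autosomes) and 11.6% (10.1 to 13.2) of the 1658 records on the X chromosome, below every autosome. These female animals carry a pair of each, and the cause of the lower share on X was not tested.

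Of 21755 protein-coding genes, 1866 (8.58%) had a pooled-only summit within 1 kb of a TSS, and 1202 (5.53%) had one and no overlapping summit there. An overlapping summit was found at 33.7%. In 13 gene lists for heart muscle, other heart cells, other tissues and CTCF itself, 16 of 205 genes found in the annotation (7.80%) had a pooled-only summit at a promoter and 5 (2.44%) had no other. No gene of the fibroblast (12 genes), endothelial (12), immune (12), skeletal muscle (12), hepatocyte (15) and housekeeping (18) lists was among them. Counts of a few genes per list are a description, and CTCF at a promoter says nothing of the gene's expression.

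Of 23 cardiac transcription factors 3 (13.0%) had a pooled-only promoter record, against 8.58% of all protein-coding genes. None of the 3 had an overlapping one, which also held for 64.4% of all protein-coding genes with a pooled-only promoter record. The count is too small to be read as a result about the list. At Irx4, a factor of the ventricles, the record chr13:73260343-73260762 had a signal of 69.5 (48.1 in pool G and 20.5 in pool H), 56 bp from a TSS, in a CpG-rich window with no core. At Myocd, the coactivator of serum response factor, chr11:65270014-65270433 had 66.3 (43.7 and 20.4), and at Mef2c, a MADS-box factor of heart development, chr13:83529213-83529632 had 54.4 (29.7 and 22.9), both without a core. The pool G value was the higher one in all 3, as in 81.0% of all matched pooled-only records. The G list held the Irx4 and Myocd records, as it did 30.1% of pooled-only records, while neither list held that of Mef2c.

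Among 22 genes of excitation and calcium handling 4 (18.2%) had a pooled-only promoter record, against 8.58% of all protein-coding genes. The record at Cacnb2, the beta subunit of the L-type calcium channel, had 95.01 (72.0 in G and 22.5 in H) at chr2:14604420-14604647, beside an overlapping record of 121 at the same promoter. At Atp2a2, the calcium pump of the sarcoplasmic reticulum, chr5:122501205-122501624 had 75.4 (41.4 and 39.0), beside an overlapping record of 259. At Kcnh2, a potassium channel of repolarisation, chr5:24326748-24327167 had 75.0 (49.6 and 26.4) and no overlapping record shared the promoter. All 3 had a core. The log2 ratio of G over H was 0.09 at Atp2a2, 1.68 at Cacnb2 and 0.91 at Kcnh2. Its median was 0.45 (quartiles 0.31 and 0.57) in overlapping records with signals of 48.7 to 96.4. Myom1, the M-band protein myomesin, was the single gene of 22 in the sarcomere list, with 84.1 (42.4 and 39.9) at chr17:71003147-71003566, a core, and an overlapping record of 388 at the same promoter.

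Of 19 genes of heart energy metabolism 3 (15.8%) had a pooled-only promoter record, against 8.58% of all protein-coding genes. Ppara, a nuclear receptor of fatty acid oxidation, had a record of 81.2 (49.7 in G and 29.5 in H) with a core at chr15:85772062-85772481. Hadha and Hadhb, subunits of the mitochondrial trifunctional protein, share a promoter region and the record chr5:30155623-30156042, with 71.6 (33.1 and 37.3) and no core. In the smooth muscle and pericyte list 2 of 10 genes (20%) had such a record, a count too small to be read as a result about the list. Abcc9, which encodes the sulfonylurea receptor SUR2, had the highest signal among the promoters named from the gene lists, with 122 (43.6 and 79.97) at chr6:142702184-142702496. Smtn, smoothelin, had 70.4 (49.1 and 24.6) at chr11:3537529-3537948. Abcc9 was higher in pool H, and Smtn in pool G.

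Of 12 genes of the CTCF and cohesin list 2 (16.7%) had a pooled-only promoter record, against 8.58% of all protein-coding genes. The count is too small to be read as a result about the list. Smc1a, a cohesin subunit, had a record of 74.9 (53.1 in G and 22.4 in H) with a core at chrX:152047209-152047628, beside an overlapping record of 172. Wapl, which releases cohesin from chromatin, had a record of 53.2 (22.2 and 30.4) without a core in a CpG-rich window at chr14:34673859-34674278, and no overlapping record. Gad1, a neuronal enzyme of GABA synthesis, was the single gene of 16 neuronal markers, with 63.6 (35.1 and 24.5) at chr2:70553789-70554208, beside an overlapping record of 556. In each of these promoters with both kinds of record the overlapping record had the higher signal.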

How the data were processed

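CTCF ChIP-seq peak lists from 2 pools of hearts, 4 thresholded by IDR and 4 ranked, were used. The authors deposited, per the labels and readme texts, peak signal as a score without a stated unit, an IDR score scaled so that 540 stands for 0.05 and 830 for 0.01, and the −log10 of the IDR. Coordinates are on mm10, per the labels. No aligner or peak caller is named there (not given in the sources used here). Read depth is unknown, so intervals cover counting error over records only. No column went unmapped and no control was analysed.

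Sharing meant 1 base. The genome was GRCm38.p6 with its soft-masking and the annotation GENCODE M21. Each summit took the first class that fitted: promoter (a TSS within 1 kb), UTR, coding or other exon, intron, and otherwise intergenic. Pool signals came from the ranked record matched between pools. Feature shares were compared by logistic regression across all records (statsmodels 0.14.6 in Python 3.11.15, with scipy 1.17.1 for binomial intervals), errors clustered by chromosome, 2-sided Wald test, Benjamini-Hochberg over 7 features. The matrix started from exact cores of overlapping records with 4 flanking bases and had 3 refits. Its threshold was the score reached in 1% of windows 1 kb away from overlapping summits. Scripts were tested on simulated data. Named records were the 10 with the highest signal, up to 3 genes per list with the strongest promoter record, 3 on each side of the threshold and 3 per kind of printed sequence, outside UTRs; 1 sequence so chosen is not reported here. Members, lists and tests were chosen with earlier results of these data known. The division into strong and weak, the kinds of summit and the counts per word were added after seeing the values. Alternatives changed the rule of overlap, the IDR threshold, each feature's definition, signal as a term, and the pool.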

Additional observations from a re-analysis of the deposited data

How the results depend on the processing

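The number of records outside the conservative list was 2275 to 3338 when a single pool's list replaced the pooled list, against 9606. The conservative list, which uses both pools, was kept there, so neither pool was left out of the comparison. The other 6 alternatives gave 7219 to 9934. The odds ratios kept their direction and side of the threshold under all changes of overlap rule, IDR threshold, motif, promoter, masking and CpG definition. They did not once signal was held. With log2 signal as a term, the core (1.298), soft-masked summits (0.828) and the most copied word (0.878) turned direction and passed the threshold. Promoters (0.979), introns (0.978), intergenic sequence (1.04) and CpG-rich windows (1.02) did not pass, and of these only CpG-rich windows kept their direction. In the shared signal range with that term, the core (1.12) turned and passed, and no other feature passed. Of those, introns (0.987) and CpG-rich windows (0.971) turned. Promoters (1.05), intergenic sequence (0.959), soft-masked summits (1.04) and the word (1.08) kept their direction. Leaving out shared intervals as well, chosen after seeing the data, no feature passed. Introns (0.941), soft-masked summits (0.954) and the word (0.989) turned, while the core (0.979), promoters (1.11), intergenic sequence (0.965) and CpG-rich windows (1.07) kept their direction. With a single pool's list in place of the pooled list, the intron odds ratio was 0.923 to 1.03. The cause was not tested. The matrix, learned on overlapping records alone, gave an odds ratio of 0.339. A first version with a pseudocount of 1 site, which hardly left the exact core words, gave 0.804 and was replaced after its result was seen. No paired analysis was possible because the pools enter as merged or matched peak lists, with no file per technical library. Depth is unknown, and its part in the weak records was not tested.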
